A study of Rattus norvegicus with 6 samples.

Results

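The genes described here are those of major histocompatibility complex (MHC) class II in the rat, where the complex is named RT1, together with the invariant chain gene Cd74. They were Cd74, RT1-Da, RT1-Db1, RT1-Ba, RT1-Bb, RT1-DMa, RT1-DMb and Ciita, chosen by name or by the accession of their probes. All 8 had a probe on the array, of 17507 named genes in all, and they had 10 probes of 60 bases, each printed once. Of these 10 probes, 8 probes from 6 genes were well above background on all 6 arrays. RT1-Ba and Ciita were not well above background on any array.

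The arrays measured hippocampal RNA of male Wistar rats ("Wister" in the labels) whose brains had long been undersupplied with blood (chronic cerebral hypoperfusion). Both common carotid arteries had been permanently tied under isoflurane (BCCAo). There were 6 groups with 1 array of pooled RNA each: a control aged 12 weeks, and rats at day 21 (13 weeks), day 35 (14 weeks), day 45 (15 weeks), day 55 (16 weeks) and day 70 (17 weeks), with ages as the labels give them. The sources used here state neither how many rats made up a pool nor whether controls were sham-operated. Slide 1 carried control, day 21 and day 35, and slide 2 carried day 45, day 55 and day 70, so slide and time cannot be told apart when a later day is set against the control.

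Class II molecules are pairs of an alpha and a beta chain that carry peptides from proteins taken up by the cell to its surface, where CD4+ T cells read them. The invariant chain, the product of Cd74, holds the pair together and blocks its groove until proteases in the endosome cut it away, and the DM pair then exchanges the last fragment for a peptide. In the healthy brain class II is scarce and sits mainly on macrophages at the borders, and microglia are known to make it when activated.

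Transcription of these genes is known to depend on a conserved promoter module, an X box bound by the RFX complex and a Y box bound by NF-Y, on which the coactivator Ciita assembles. RefSeq promoters (GRCr8, from 250 bases before to 50 after the start) were matched for 6 of the 8 genes. The module is shown because it is what these promoters share: capitals mark a core of the X box, GNNAC, and a core of the Y box, ATTGG, each on the strand of the gene.
RT1-Da, chr20:4515325-4515378, plus strand: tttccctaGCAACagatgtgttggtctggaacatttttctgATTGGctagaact
RT1-Db1, chr20:4560230-4560282, minus strand: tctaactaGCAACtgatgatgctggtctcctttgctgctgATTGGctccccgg
RT1-Ba, chr20:4576973-4577026, plus strand: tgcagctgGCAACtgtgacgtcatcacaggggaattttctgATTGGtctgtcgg
RT1-Bb, chr20:4604167-4604219, minus strand: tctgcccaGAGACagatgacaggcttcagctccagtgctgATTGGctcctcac
RT1-DMa, chr20:4712387-4712440, minus strand: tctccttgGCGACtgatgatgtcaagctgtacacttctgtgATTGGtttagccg

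In these 5 promoters the ATTGG began 32 or 33 bases after the G of GNNAC and was preceded by TG, which makes TGATTGG. The Y core began 43 to 80 bases before the start. RT1-Ba carried the module although its probe gave no signal above background. Of 33469 rat promoters of the same length, 7.06% held TGATTGG on either strand, and 0.421% held GNNAC followed by TGATTGG with the ATTGG 30 to 34 bases after the G, searched on both strands. The letters and the spacing were chosen after the sequences had been read, and a match is a description, not a site shown to be bound. The promoter of Cd74 had no TGATTGG on either strand. It held GAAAC, and 27 bases after its first base CCAAT, which is ATTGG read on the other strand, both in capitals here.
Cd74, chr18:56526982-56527029, plus strand: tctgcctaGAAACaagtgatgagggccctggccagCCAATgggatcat

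Values are processed spot signals in intensity units, or log2 of that signal minus the 75th percentile of its array, called the scaled level. A difference is one scaled level minus another, and a probe is counted as higher or lower from a difference of 1, which is 2-fold. With 1 array per group there was no test and no spread between animals. The spread between spots of a probe printed 10 times, a median SD of 0.052 to 0.073 log2 units on an array, would give a difference between 2 arrays an SD of 0.084 from that source alone. The error that the scanner software gave the spots of these genes was 10.0 to 21.3% of the signal. The 75th percentile lay between 1243 and 1504 intensity units, and 74.5 to 80.2% of spots were well above background. All 8 hippocampal neuron markers checked, among them Neurod6 and Snap25, were well above background on every array. At day 21, 6 of the 8 lay below control, none by 2-fold. Their median difference was -0.28, against -0.07 over all genes, and their summed signal was 0.854 times the control. At day 45 the median was 0.07 and the summed signal 1.01 times. All differences from control share the control array.

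Class II transcripts were highest on the day 21 array for all 8 measured probes. Of the 8, 4 probes stood at least 2-fold above control, those of Cd74 and RT1-Da and a probe each of RT1-Db1 and RT1-Bb, by 7.20- to 14.7-fold, against 3.18% of all 23401 probes compared (2.26% were lower). At day 35 the same 4 probes were back within 0.22 of control, apart from RT1-Da. At day 45 these 4 probes were again at least 2-fold above control, by 2.16- to 4.94-fold, against 0.692% of 23125 probes (6.91% were lower). The median difference of the 8 probes was 1.92 at day 21, 0.10 at day 35, 0.69 at day 45, -0.25 at day 55 and 0.05 at day 70, and over all probes it was -0.06, -0.04, -0.08, -0.05 and -0.05. With normexp background correction, run with an offset of 50 intensity units, 1 probe in place of 4, Cd74, reached 2-fold at day 45. The day 45 median was then 0.48. Over all probes the same setting gave 42 that were 2-fold higher at day 45 in place of 160.

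**Figure D1:**
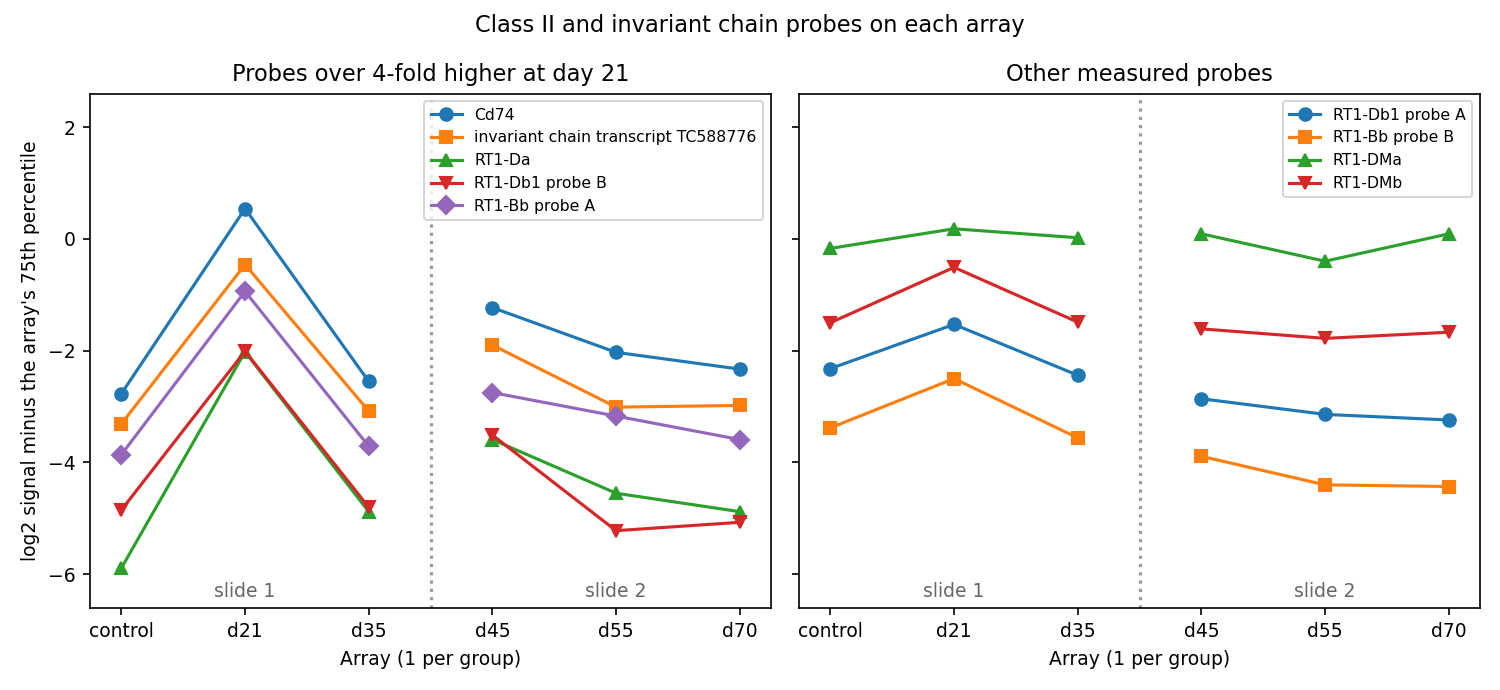
Scaled level (log2 signal minus the array's 75th percentile) of the class II and invariant chain probes on each of the 6 arrays, 1 point per array, with lines joining arrays of the same slide. The left panel shows probes over 4-fold higher at day 21, which stand high at day 21 and again, by less, at day 45; the right panel shows the other measured probes, of which RT1-Db1 probe A and RT1-Bb probe B lie lower on slide 2.

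Cd74 encodes the invariant chain, which is also a receptor for the cytokine MIF. Its probe lies at chr18:56765468-56765527 of rn4, the build of the array files, and begins catttctgacccattagcagtctttaatgt (its first 30 bases). The signal was 192 intensity units in the control, 1810 at day 21, 257 at day 35, 565 at day 45, 314 at day 55 and 276 at day 70. Day 21 stood far above every other array, day 45 came second, and all 5 days lay above the control. Against control these were differences of 3.31, 0.22, 1.54, 0.73 and 0.44, or 9.93-fold at day 21 and 2.91-fold at day 45. Its rise had rank 12 among the 21474 probes measured on both arrays at day 21, and rank 28 among 20486 at day 45.

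The array held a further probe for the invariant chain that the choice by name left out, since its target is an assembled transcript, TC588776, described in the files as the rat invariant chain. It lies just upstream of the Cd74 probe, at chr18:56764968-56765027 (rn4), and begins atggaagacccatcttctggcctgggagtg. Its signal was 133 intensity units in the control, 903 at day 21, 178 at day 35, 356 at day 45, 160 at day 55 and 176 at day 70. It gave the same order for day 21 and day 45 as the Cd74 probe, with differences of 2.85 at day 21 and 1.41 at day 45. At day 55 it was 0.30 above control where the Cd74 probe was 0.73 above.

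RT1-Da encodes the alpha chain of the RT1-D molecule, the rat relative of human HLA-DR. Its probe, at chr20:4641104-4641163 (rn4), begins atattctattttccatcatttatagtaatt. The signal was 22.1 intensity units in the control, near the floor of 15.9 that the lowest detected probes of that array gave, then 307 at day 21, 51.2 at day 35, 110 at day 45, 54.9 at day 55 and 47.0 at day 70. Every day lay above the control, day 21 and day 45 were the highest, and day 35 and day 70 had the same scaled level of -4.88. The differences from control were 3.87, 1.02, 2.30, 1.34 and 1.01, or 14.7-fold at day 21 and 4.94-fold at day 45. Its rise had rank 6 among the probes measured on both arrays at day 21, and again at day 45. The size of these folds depends on a control spot close to background: over the settings tried the difference ranged from 2.15 to 4.19 at day 21, from 0.99 to 2.82 at day 45, from 0.33 to 1.77 at day 55 and from -0.01 to 1.57 at day 70.

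RT1-Db1 encodes the beta chain that pairs with it, and its 2 probes gave different courses. Probe B, at chr20:4671516-4671575 (rn4), begins ttcaagcagaagaaataccattcatgcata. It read 45.4 intensity units in the control, 310 at day 21, 54.2 at day 35, 116 at day 45, 34.5 at day 55 and 41.3 at day 70. The difference from control was 2.85 at day 21, 0.06 at day 35 and 1.34 at day 45, and it was -0.37 at day 55 and -0.22 at day 70, so the day 45 value stood alone on slide 2. Probe A, at chr20:4672665-4672724, begins acaaaataagaagatgagtggagtcggggg. It read 263, 430, 278, 183, 146 and 147 intensity units in the same order. Its difference was 0.79 at day 21, under the 2-fold line, and it lay below control at day 45 by a difference of -0.54, at day 55 by -0.82 and at day 70 by -0.92. At day 45 the 2 probes of this gene therefore stood on opposite sides of the control.

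RT1-Bb encodes the beta chain of the RT1-B molecule, the relative of human HLA-DQ, and its 2 probes parted in the same way. Probe A, at chr20:4730533-4730583 (rn4), begins cagctgtgacagttgtgaaataccctagct. It read 90.4 intensity units in the control, 650 at day 21, 115 at day 35, 198 at day 45, 142 at day 55 and 115 at day 70, all above the control. The differences were 2.92, 0.15, 1.11, 0.69 and 0.27. Probe B, at chr20:4732187-4732246, read 126, 220, 127, 89.3, 60.7 and 64.4 intensity units. Its difference was 0.89 at day 21 and -0.51 at day 45, and at day 55 (-1.02) and day 70 (-1.05) it was the 1 class II probe at least 2-fold below control. Over all probes 5.71% were lower at day 55 and 8.06% at day 70, so 1 of 8 is close to the background share.

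Probe B of RT1-Bb shares most of its sequence with the probe of LOC688090, a gene described as similar to the same beta chain, for which the files give no position. They are set side by side because they read like transcripts and gave different values; capitals mark the bases that differ over the 45 bases they share, of which 42 are equal.
RT1-Bb probe B: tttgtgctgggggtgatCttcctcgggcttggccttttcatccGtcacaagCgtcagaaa
LOC688090: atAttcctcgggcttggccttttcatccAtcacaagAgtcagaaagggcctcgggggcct
Counted from the 5′ end of RT1-Bb probe B, the differences are C18A, G44A and C52A. The LOC688090 probe read 22.8 intensity units in the control, 101 at day 21, 31.4 at day 35, 45.0 at day 45, 24.4 at day 55 and 26.7 at day 70. Its difference was 2.23 at day 21 and 0.97 at day 45, where RT1-Bb probe B had 0.89 and -0.51. Near-identical copies can share signal on such probes, and RT1 genes differ between rat strains. Whether either bears on the split between probes was not tested.

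RT1-Ba, the alpha chain partner of RT1-Bb, read 3.49 to 8.98 intensity units over the 6 arrays, all below the floors of 13.6 to 18.2. No level can be given for it, which says only that this probe gave no signal. Its probe, at chr20:4700973-4701032 (rn4), begins aagagatagctacagcaaaatacaatttgg.

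RT1-DMa and RT1-DMb encode the DM pair, which acts in endosomes on class II molecules already made. RT1-DMb, probed at chr20:4830313-4830372 (rn4), read 463 intensity units in the control, 875 at day 21, 536 at day 35, 434 at day 45, 373 at day 55 and 436 at day 70. Its day 21 difference was 1.00 when rounded and fell just short of the 2-fold line, while its other differences lay between -0.28 and 0.02. RT1-DMa, probed at chr20:4844372-4844431, read 1163, 1409, 1526, 1413, 977 and 1479 intensity units, with differences of 0.36, 0.19, 0.27, -0.22 and 0.26, the flattest course of the measured probes. At day 45 the differences of the DM genes, 0.27 and -0.11, were smaller than the 1.54 of Cd74. RT1-DOb, which encodes a chain of the DO molecule that restrains DM, had differences of 1.60 at day 21 and 0.15 at day 35, and was not well above background at day 45 or day 70. RT1-DOa, RT1-Ha and Btnl2, the other genes of the region with a probe, were not well above background on any array.

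Ciita, the coactivator without which class II genes are scarcely transcribed, read 2.98 to 14.5 intensity units and was not well above background on any array. The highest of these values was that of day 21, under that array's floor of 17.7, so no course can be given. Its probe, at chr10:5087176-5087235 (rn4), begins ccttctgtctcatctaatgcaaaaacatgc.

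**Figure D2:**
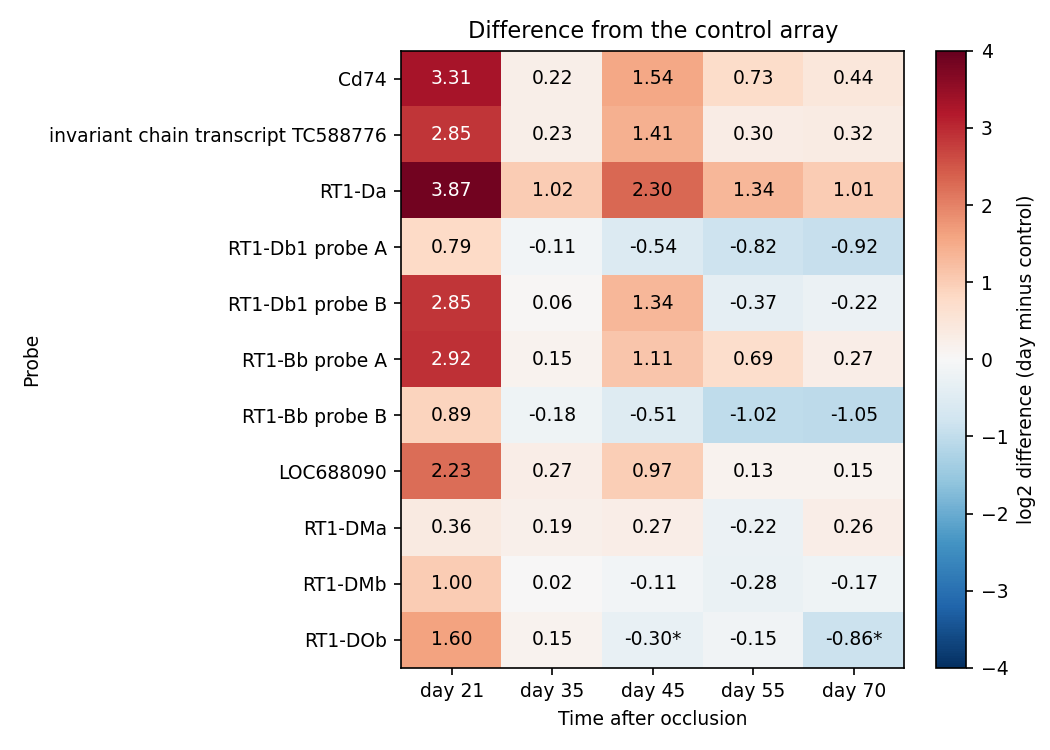
Log2 difference of each time point from the control array for 8 measured class II probes and 3 related probes (TC588776, LOC688090 and RT1-DOb), 1 array per group, with colour from blue (below control) to red (above) and a star where the value is only a bound. The day 21 values are all above 0, the day 45 values are split between 6 probes from 0.97 to 2.30 and 5 from -0.54 to 0.27.

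At day 35, 1 of the 8 probes, RT1-Da, stood at least 2-fold above control (2.02-fold), against 0.617% of 23483 probes, and none was 2-fold lower (1.49% of probes were). RT1-Da was also the 1 probe at least 2-fold higher at day 55, by 2.54-fold against 0.772% of probes, and at day 70, by 2.01-fold against 0.766%. Its day 35 and day 70 values sit on the 2-fold line and fell below it with normexp correction and in the table of values the authors deposited. Its day 55 difference was 0.50 with normexp correction and 0.33 with the day 35 array as baseline. The balance between higher and lower probes over the whole array moved with the scaling. Quantile normalization gave 239 higher and 290 lower probes at day 35 where the main scaling gave 145 and 350. At day 45 it gave 363 and 581 in place of 160 and 1598, at day 55 364 and 788 in place of 182 and 1347, and at day 70 437 and 803 in place of 179 and 1884. At day 21 normexp correction gave 333 higher and 61 lower in place of 744 and 530. RT1-Db1 probe A and RT1-Bb probe B stayed below control at days 45, 55 and 70 in every setting tried, including those.

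The day 45 values were next set against the other arrays of the same slide, so that slide was not part of the comparison. All 8 probes were higher at day 45 than at day 55, 1 of them at least 2-fold, against 0.846% of all probes. Against day 70, 3 of 8 were at least 2-fold higher, RT1-Db1 probe B by 2.95-fold, RT1-Da by 2.45-fold and Cd74 by 2.14-fold, against 1.06% of probes. TC588776 was 2.16-fold above day 55 and 2.12-fold above day 70. On slide 1, day 21 was at least 2-fold above day 35 for 5 of 8 probes, against 4.03% of all probes. With normexp correction the count against day 70 was 0 and the differences were smaller, 0.96 for Cd74, 0.72 for RT1-Da and 0.92 for RT1-Db1 probe B, while that of day 21 over day 35 was 4.

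Day 21 over day 35 and day 45 over day 70 share no array and each lies within a slide. They were chosen after the values had been seen. Of 12408 genes well above background on all arrays, 380 were at least 2-fold higher in the first comparison and 38 in the second, and 8 were in both, which is 2.11% of the first list and 21.1% of the second. Cd74 and RT1-Da were among the 8. Others of the 8 were Lgals3, which encodes galectin-3 of activated phagocytes, Spi1, the myeloid transcription factor PU.1, the gluconeogenic enzyme gene Fbp1, Ascl3 and Qrich2. Lgals3 had differences of 4.18 and 1.15, and Spi1 of 1.15 and 1.01.

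**Figure D3:**
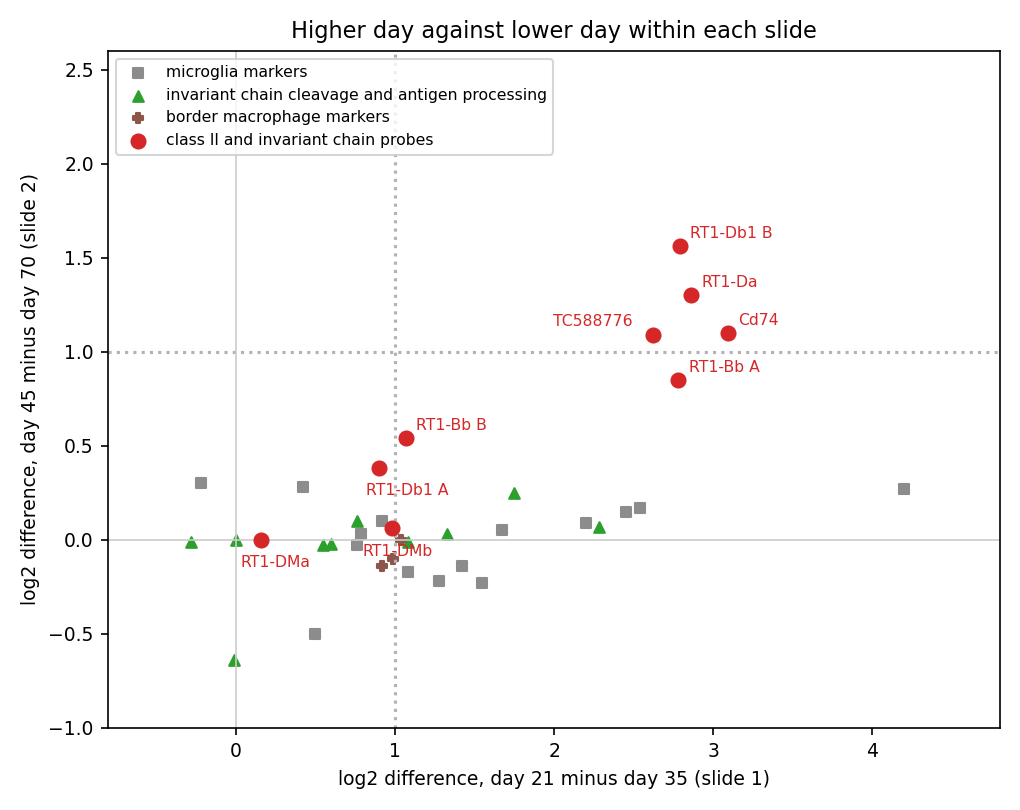
Log2 difference of day 21 minus day 35 (horizontal, slide 1) against day 45 minus day 70 (vertical, slide 2), 1 array per group, for class II and invariant chain probes (red, labelled), microglia markers, antigen processing genes and border macrophage markers. Cd74, TC588776, RT1-Da, RT1-Db1 probe B and RT1-Bb probe A lie high on both axes. RT1-DMa (0.00), RT1-DMb (0.06), RT1-Db1 probe A (0.38) and RT1-Bb probe B (0.54) lie lower on the second axis. Microglia markers reach 4.20 on the first and stay at or under 0.30 on the second.

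The microglia list had 15 of 15 genes above 0 at day 21, 8 of them at least 2-fold, with a median difference of 1.17 against -0.07 over all genes (3.58% of genes were 2-fold higher and 1.87% lower). At day 45 none of the 15 was 2-fold higher, and the median was 0.08 against -0.06 over all genes (0.593% were 2-fold higher and 5.75% lower). The summed signal of the list was 2.49 times that of the control at day 21 and 1.01 times at day 45. The class II genes, 1 probe a gene, had 2.63 and 1.30 times. Most of their control sum came from RT1-DMa and RT1-DMb, at 1163 and 463 intensity units against 192 for Cd74, and RT1-Db1 entered by probe A. Cd68, a lysosomal protein of phagocytes, was 15.2-fold above control at day 21 and had a difference of -0.30 at day 45. Aif1, the calcium-binding protein Iba1, was 3.17-fold above control at day 21 with a difference of 0.06 at day 45. Ptprc, the pan-leukocyte phosphatase CD45, was 4.76-fold above at day 21 with 0.15 at day 45. Trem2, a lipid receptor of microglia, was 5.75-fold above at day 21 and had the largest day 45 difference of the list, 0.55. Csf1r, the receptor on which microglia depend, had 0.44 and 0.02, while another of its probes gave -0.22 and -1.53. At day 45 over day 70 the microglia genes ranged from -0.50 to 0.30, with a median of 0.05. The 8 measured class II probes ranged from 0.00 to 1.56, with a median of 0.69. The 4 of them that were 2-fold above control at day 45 had 0.85 to 1.56, but they were picked by the same day 45 array. The other 4 had 0.00 to 0.54 and overlapped the microglia range. In bulk RNA more cells of a type and more RNA per cell cannot be told apart.

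Markers of other cells that carry class II, or meet it, were read on the same arrays. Of 14 T cell markers, 6 were not well above background on any array, namely Cd3g, Cd247, Cd8a, Cd2, Cd5 and Cd28. None of the 8 others was 2-fold higher on day 21 or day 45. The summed signal of all 14 was 0.850 and 0.893 times that of the control, most of it from Thy1. Thy1 read 1379 intensity units in the control, against 418 for Cd3d, the next brightest. Its differences were -0.45 at day 21 and 0.15 at day 45, so the sum says little about the other markers. Cd3d and Cd4 were 2.51- and 2.03-fold below control at day 45, where 5.75% of all genes were at least 2-fold lower. Both were also low on the other arrays of slide 2. Cd3d was 2.20-fold below control at day 55 and 2.40-fold at day 70, and Cd4 at least 2.86-fold and 2.46-fold. Day 45 minus day 70 was -0.07 for Cd3d and 0.28 for Cd4. Of 7 B cell markers on the array, 5 were not detected, namely Ms4a1, Cd79b, Blk, Cr2 and Cd22, and the summed signal was 0.860 and 0.734 times the control at day 21 and day 45. Of 9 dendritic cell markers 4 were not detected, Xcr1, Clec9a, Siglech and Lamp3, and the summed signals were 1.12 and 0.854 times the control. At day 21 Zbtb46 was 1.97-fold and Batf3 at least 1.82-fold above control. At day 45 Zbtb46 was at least 2.48-fold and Ccr7 at least 2.07-fold below it. Zbtb46 was also 2.27-fold below control at day 55 and at least 2.89-fold at day 70. Ccr7 was at least 2.67-fold below control at day 55 and 1.81-fold above it at day 70. The border macrophage genes Lyve1 and Pf4 had differences of 0.73 and 0.89 at day 21 and -0.28 and 0.12 at day 45, Cd163 was at least 1.90-fold above control at day 21, a bound that leaves unknown whether it reached 2-fold, and Mrc1 and F13a1 were not detected. The summed signal of that list was 1.78 times the control at day 21 and 0.984 times at day 45.

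Transcripts of neighbouring tissue also differed between the pools. The choroid plexus list had 6 of 9 entering genes 2-fold higher at day 21, with Ttr, the thyroxine carrier transthyretin, at least 17.6-fold above control on a saturated spot. The summed signal of the list, most of it from Ttr, was at least 15.9 times that of the control at day 21, 8.12 times at day 35, 0.959 times at day 45, 0.984 times at day 55 and 13.5 times at day 70. Without Ttr, a sum added after seeing the data, it was 3.0, 1.70, 0.803, 1.13 and 2.15 times the control in the same order. The class II medians on those days were 1.92, 0.10, 0.69, -0.25 and 0.05. Prlr of that list was not detected. The meningeal fibroblast list had 4 of 7 genes 2-fold higher at day 21 and a summed signal of 2.90 times the control, against 0.871 times at day 45. The red blood cell genes summed to 1.15 times the control at day 21 and 0.570 times at day 45. The part of the choroid plexus and the meninges in the class II values was not tested.

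Of the 10 genes of the X and Y box complexes and their cofactors, none was 2-fold higher at day 21 or day 45, and the median difference was 0.02 and -0.01. Rfx5, the DNA-binding subunit of the RFX complex, was at least 2.23-fold lower at day 45. Crebbp, a histone acetyltransferase, had -0.64 at day 21 and -0.82 at day 45, and Creb1, which binds the same module, 0.60 and -0.25. Rfxap and Rfxank, the partners of Rfx5, stayed between -0.10 and 0.16 on every day. Of NF-Y, Nfyb stayed between -0.03 and 0.10, and a further Nfyb probe between -0.03 and 0.28. Nfya, a dim probe at 27.6 intensity units in the control, had 0.52 at day 21 and -0.44 at day 45. Nfyc had -0.25 and 0.25.

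In the list of interferon gamma signalling and the myeloid factors upstream of Ciita, 2 of 8 entering genes were 2-fold higher at day 21, with a median of 0.34. Irf8, a myeloid interferon regulatory factor, was at least 3.43-fold higher at day 21, the array on which it was detected. Spi1 was 2.42-fold higher at day 21 and had differences of 0.66 at day 45 and 0.70 at day 55. Ifng itself was not well above background on any array, and its receptor genes Ifngr1 and Ifngr2 had differences of 0.43 and 0.25 at day 21 and 0.31 and 0.21 at day 45. Irf1, a transcription factor induced through the receptor, had 0.49 at day 21, although another probe of it gave -0.76. Socs1, an inhibitor of that pathway, was 2.42-fold below control at day 35, at least 2.77-fold at day 45, 2.14-fold at day 55 and at least 3.46-fold at day 70.

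Of 10 genes that cut the invariant chain or prepare antigen, 4 were 2-fold higher at day 21 and none at day 45, with medians of 0.75 and 0.12. Ifi30, the lysosomal thiol reductase GILT, was 4.56-fold above control at day 21. Ctsz, a cathepsin, was 3.50-fold above, Ctsd, an aspartic protease, 2.80-fold, and Ctss, the protease that makes the last cuts in the invariant chain, 2.21-fold. At day 45 their differences were 0.10, 0.37, 0.16 and 0.39. Marchf1, a ubiquitin ligase that removes class II from the surface, had -0.16 at day 21 and -0.69 at day 45, and Cst3 was saturated on every array.

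Of the listed genes for costimulation or inhibition of T cells, Cd80, Cd86 and Pdcd1lg2 were not well above background on any array. Cd274 had differences of -0.45 at day 21 and -0.09 at day 45. Cd40 was 2.25-fold above control at day 21, with a difference of -0.30 at day 45, and a further Cd40 probe gave 1.14 and -0.35. Among the partners of Cd74 as MIF receptor, Cd44 was 4.22-fold above control at day 21 with 0.11 at day 45, though another Cd44 probe gave 0.18 and -1.35. Mif and Ddt, its ligands, had 0.13 and 0.26 at day 21 and 0.00 and 0.05 at day 45.

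**Figure D4:**
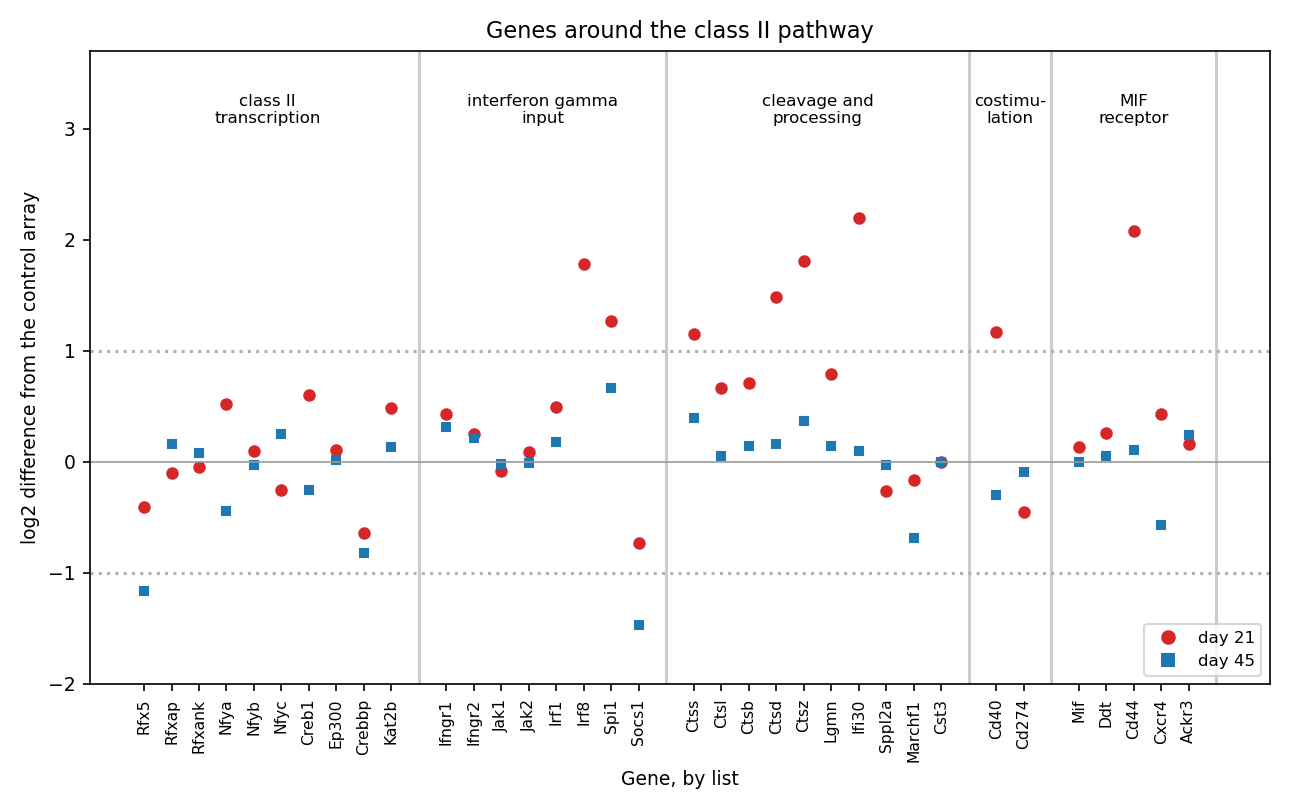
Log2 difference from the control array at day 21 (red circles) and day 45 (blue squares) for the genes of 5 lists around the class II pathway that could be compared, 1 probe a gene and 1 array a group; dotted lines mark 2-fold. Ifi30, Cd44, Ctsz and Irf8 stand highest at day 21, and at day 45 no gene lies above the upper line.

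The genes whose course over the 6 arrays was nearest to that of Cd74 were sought among 12402 other named genes well above background on all arrays, by the root mean square difference of levels centred on each gene's own mean. They were Gpnmb (0.28 log2 units), S100a4 (0.31), Bcl3 (0.31), Serping1 (0.33), C3 (0.33) and Ms4a6bl1 (0.37). By the same measure RT1-Bb probe A lay at 0.17 from Cd74, TC588776 at 0.19 and RT1-Da at 0.26, nearer than any of those genes. RT1-Db1 probe B lay at 0.37, and RT1-DMb, RT1-Bb probe B, RT1-Db1 probe A and RT1-DMa at 0.81 to 1.04. Gpnmb, a glycoprotein of phagocytes, had differences of 3.59 at day 21 and 0.94 at day 45, and C3, the central complement component, of 2.89 and 0.49. For RT1-Da the nearest were Gpnmb (0.44), Aspg (0.49), Bcl3 (0.51), Serping1 (0.52), S100a4 (0.52) and Trem2 (0.55). Aspg had differences of 2.54 at day 21 and 1.06 at both day 45 and day 55.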

How the data were processed

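Per the labels' protocols, pooled total RNA was amplified and labelled with an Agilent kit. The authors deposited 1 scanner file per array, whose processed signal is an intensity with local background subtracted and the spatial trend removed, made with Agilent Feature Extraction 10.7.3.1 per the file headers. The labels name Cy5, whereas the files hold 1 colour, the green channel. Here log2 intensities were scaled by each array's 75th percentile, outlier spots (346 to 470 per array) were left out and spots of a probe averaged. A probe entered a comparison where it was well above background on at least 1 array of it. A dim side was set to the lowest detected signal of its array, or its own if higher, giving a bound. Probes were named through RefSeq (17328 of 30367 by accession). Lists used the probe of highest mean per gene. All list genes at least 2-fold from control, or else the leading genes of a list, could be named. The members and lists were chosen with earlier results of these data known. The deposited value table is an intensity of unstated normalization, with medians of 298.0 to 298.4. It ranked spots as the background-subtracted median signal did (Spearman 1.00). Python 3 with pandas and, for normexp, limma in R were used. The step that takes differences was checked on simulated data with 1 spot a probe, so the averaging of spots was not checked. Some genes are not reported here.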

Additional observations from a re-analysis of the deposited data

How the results depend on the processing

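No paired analysis was possible because each group had 1 array, so no replicate could be left out either. The day 21 count of 4 was 5 with quantile normalization and with the day 35 baseline, and 7 at a 1.5-fold threshold. The day 45 count of 4 was 1 with normexp correction and 3 with the day 35 baseline. Counts of 2-fold higher probes at day 35 and day 70 went from 1 to 0 with normexp correction and in the table the authors deposited, and the day 55 count to 0 with normexp correction. With the day 35 array as baseline the day 55 and day 70 counts were 0, and RT1-Da at day 70 turned to -0.01. At 1.5-fold the day 55 count was 3. Counts of lower probes at day 55 and day 70 were 0 with normexp correction, quantile normalization, median scaling, the deposited table and the day 35 baseline, and 2 at 1.5-fold. Of the counts within slides, chosen after seeing the data, day 45 over day 55 went from 1 to 0 with normexp correction, to 2 with quantile normalization and with median scaling, and to 3 at 1.5-fold. Day 45 over day 70 went from 3 to 0 with normexp correction. The day 21 median was 1.37 with normexp correction, 2.03 with quantile normalization and 1.74 in the deposited table. At day 35 it was -0.01 and 0.21 with the first and second of these. At day 45 it was 0.48 with normexp correction, 0.81 with quantile normalization, 0.81 with median scaling, 0.52 with the day 35 baseline and 0.35 with the probes of a gene averaged. At day 55 it was -0.13 with quantile normalization, -0.12 in the deposited table and -0.36 with the day 35 baseline. At day 70 it was -0.06 with normexp correction, 0.26 with quantile normalization, 0.14 with median scaling, 0.18 in the deposited table and -0.10 with the day 35 baseline. The cause of these moves was not tested. Keeping outlier spots, comparing probes detected on both arrays, and dropping filter and floor left the counts and medians within 1.5 times and 0.084. Precision is limited by the number of arrays, and probes near the floor, RT1-Da in the control first among them, have the least certain folds.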

Other observations

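The files also held a probe of a transcript without a gene name, ENSRNOT00000060360, at chr15:29593624-29593683 (rn4), which no comparison above used. It was looked at as class II alpha chain-like, but it lies apart from the RT1 probes of chromosome 20. Whether it is a class II transcript was not tested. It read 47.9 intensity units in the control, 11.3 at day 21, 42.1 at day 35, 14.6 at day 45, 16.3 at day 55 and 12.3 at day 70. It was well above background in the control, at day 35 and at day 55, and not at day 21, day 45 or day 70. Its day 21 difference from control was a bound of at least 2.57-fold lower, and it is not counted here as a class II value.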
